A study of Mus musculus with 8 samples.

Results

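The expression of 10 genes of the MHC class II presentation pathway was examined in 4 mouse models of endometrial cancer, named TPM, TPMCa, TPMR1 and TPK. The genes were chosen by name: H2-Aa, H2-Ab1, H2-Eb1, H2-DMa, H2-DMb1, Cd74, Ciita, Cd86, Cd80 and Flt3. All 10 were present among the 24419 gene symbols of the count table, and all 10 were among the 15875 genes kept by the filter on low counts. Each model was represented by 2 bulk RNA libraries, so that every level below is given for 8 libraries. Levels are given in CPM, the read count of a gene divided by the library's total after TMM scaling and multiplied by 1000000.

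All models started from uterus organoids of female CAG-Cas9-EGFP mice aged 8 to 10 weeks, whose cells make the Cas9 nuclease. The edited organoids were transplanted into the left uterus of female BALB/cA-nu hosts at 8 weeks of age, and the methods describe tumor tissue collected about 2 months later, whereas the labels describe organoids. TPM received an sgRNA against Trp53 and a Myc cDNA. TPMCa received these and a retroviral Pik3ca cDNA with the E545K change, TPMR1 received these and an sgRNA against Pik3r1, and TPK had edits that include the sgRNA against Trp53 without a Myc cDNA. The replicates of a model came from separate mice, and the methods describe viral infection of dissociated organoid cells without naming a choice of single clones. The hosts were nude mice, which have no thymus and few mature T cells but keep B cells, macrophages and dendritic cells. A library of tumor tissue would hold RNA of engineered cells and of host cells, whose shares cannot be told apart in these counts. Fewer cells of a type and less RNA per cell cannot be told apart either.

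MHC class II molecules are heterodimers of an alpha and a beta chain that show peptides from the endosomal pathway to CD4 T cells. Cd74, the invariant chain, guides new class II molecules to endosomes, the H2-DM heterodimer exchanges its remnant for antigenic peptide, and the coactivator Ciita switches on transcription of the whole group. The pathway is used mainly by dendritic cells, macrophages and B cells, and interferon-gamma can switch it on in epithelial and other cells.

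Class II promoters are known for an X box bound by the RFX complex and a Y box bound by NF-Y, to which Ciita is recruited. RefSeq promoters of 300 bases (250 before to 50 after the gene's start, build GRCm38.p6) were matched by symbol for 6 of the 10 genes, namely H2-Aa, H2-Eb1, H2-DMa, H2-DMb1, Cd80 and Flt3. Both strands were searched for an X box core, GNAACT, and a Y box core, TGATTGG, spelled out after the promoter sequences had been read, and the cores do not overlap each other. GNAACT alone was present in 42.8% and TGATTGG alone in 7.82% of the 32851 promoters in the table. Both cores in this order, 15 to 35 bases apart, were present in 66 of these promoters, 0.201%. They were present in 3 of the 6 matched genes, H2-Aa, H2-Eb1 and H2-DMb1, with 25, 24 and 25 bases between the cores. The sequences of the chain genes H2-Aa (minus strand, chr17:34287847-34287924) and H2-Eb1 (plus strand, chr17:34305756-34305832) are shown because they carry both cores, printed in capitals. The pair was absent from both H2-DMa promoters and from the promoters of H2-DMb2, H2-Oa and H2-Ob in the table. It was present in the promoter of H2-Eb2, another class II chain outside the 10 genes.
H2-Aa: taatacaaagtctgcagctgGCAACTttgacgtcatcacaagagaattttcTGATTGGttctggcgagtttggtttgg
H2-Eb1: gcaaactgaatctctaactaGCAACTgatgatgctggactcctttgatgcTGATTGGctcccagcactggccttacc
The stretch of H2-DMb1 with the same pair overlaps an annotated exon and is not printed. A match is a description of the letters and not a measured binding site.

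Total counts per library lay between 15748396 and 26943611, and a floor of 3 counts corresponded to 0.116 to 0.198 CPM, which covers counting error only. The epithelial marker Epcam lay between 313 and 527 CPM in TPM and TPK and between 0.389 and 5.0 CPM in TPMCa and TPMR1, so the epithelial label was not matched by this marker in the latter libraries. Pik3r1 lay at 100.5 and 51.3 CPM in TPMR1 against 99.6 and 188 CPM in TPM, and Pik3ca at 89.9 and 83.3 CPM in TPMCa against 76.6 and 60.9 CPM in TPM. Myc lay between 324 and 3075 CPM in the models with its cDNA and at 153 and 92.8 CPM in TPK. Trp53 RNA was present at 33.2 to 131 CPM, and an edited gene can keep its RNA level. A pair of libraries stood apart in host cell markers. The 6 B cell markers summed to 195 CPM in TPMCa replicate 2 and to between 1.32 and 16.2 CPM in every other library. The pan-leukocyte gene Ptprc (CD45) lay at 5.38 CPM in TPMR1 replicate 1 and between 35.5 and 196 CPM in every other library. Results that rest on these libraries are given with and without them.

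The class II chain genes spanned a wide range of levels, with the highest values in TPMCa replicate 2 and TPK replicate 1 and the lowest in both TPMR1 libraries. H2-Aa encodes the alpha chain of the I-A molecule and is on chromosome 17 (34282744 to 34287823, minus strand, GRCm38). H2-Aa lay at 62.1 and 29.0 CPM in TPM, 28.6 and 219 CPM in TPMCa, 1.05 and 6.95 CPM in TPMR1 and 143 and 32.2 CPM in TPK, replicate 1 first. The TPMR1 libraries were below all others, while TPM, TPMCa and TPK overlapped. H2-Ab1, the I-A beta chain (17, 34257689 to 34269419, plus strand), lay at 78.1 and 40.7 CPM in TPM, 32.4 and 179 CPM in TPMCa, 4.10 and 12.5 CPM in TPMR1 and 167 and 29.9 CPM in TPK. H2-Eb1, the beta chain of the I-E molecule (17, 34305867 to 34316674, plus strand), lay at 64.0 and 33.6 CPM in TPM, 23.4 and 186 CPM in TPMCa, 0.929 and 5.73 CPM in TPMR1 and 131 and 10.5 CPM in TPK. Both beta chain genes had the same order of libraries at the extremes as H2-Aa. The log2 CPM values of the 3 chain genes had Pearson correlations of 0.975 to 0.989 over the 8 libraries, a description over points that share their libraries and their marker levels. The replicates of TPMCa were 7.65-fold apart for H2-Aa, 5.52-fold for H2-Ab1 and 7.93-fold for H2-Eb1, and those of TPK were 12.5-fold apart for H2-Eb1.

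The genes of the peptide-exchange heterodimer differed from each other in TPMR1. H2-DMb1, its beta chain (17, 34153072 to 34160230, plus strand), lay at 10.8 and 8.58 CPM in TPM, 2.34 and 22.7 CPM in TPMCa, 1.01 and 1.0 CPM in TPMR1 and 20.5 and 14.2 CPM in TPK. Here both TPK libraries were above both TPM libraries, and TPMR1 was again lowest. H2-DMa, the alpha chain (17, 34119541 to 34139101, plus strand), lay at 10.7 and 5.89 CPM in TPM, 6.59 and 42.5 CPM in TPMCa, 5.92 and 3.5 CPM in TPMR1 and 22.1 and 7.84 CPM in TPK. The TPMR1 libraries of H2-DMa thus overlapped those of TPM. Annotated exons of H2-DMa overlap those of Brd2, a transcription regulator at 239 to 661 CPM in these libraries, and the counting of such reads is not given in the sources used here. H2-DMb1 has a near-identical neighbor, H2-DMb2, so reads may have been split between them and both counts are uncertain.

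Cd74 and Ciita, the invariant chain and the coactivator, also had their lowest levels in TPMR1 and their highest in TPMCa replicate 2. Cd74 lay at 190 and 116 CPM in TPM, 74.0 and 562 CPM in TPMCa, 3.29 and 15.5 CPM in TPMR1 and 411 and 175 CPM in TPK. Its TPMR1 libraries were below every other library. Ciita, the coactivator (16, 10480059 to 10528418, plus strand), lay at 7.95 and 5.03 CPM in TPM, 4.18 and 32.9 CPM in TPMCa, 0.503 and 0.667 CPM in TPMR1 and 8.57 and 2.90 CPM in TPK. The highest library was TPMCa replicate 2 and the lowest were again both TPMR1 libraries, and TPK overlapped TPM. Exons of Ciita overlap those of Dexi, which lay at 13.0 to 46.7 CPM. Per kilobase of exon, the level of Cd74 was the highest of the 10 genes in each of the 8 libraries, with means of 91.2 CPM per kb in TPM, 189 in TPMCa, 5.58 in TPMR1 and 174 in TPK, while the mean level of Ciita was 0.681, 1.95, 0.0614 and 0.602 CPM per kb.

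The co-stimulatory ligands varied less between replicates than the class II genes in TPMCa and TPK. Cd86 (16, 36603869 to 36666081, minus strand), a ligand of CD28 on antigen-presenting cells, lay at 4.09 and 2.92 CPM in TPM, 7.98 and 10.1 CPM in TPMCa, 1.32 and 2.0 CPM in TPMR1 and 7.14 and 5.47 CPM in TPK. The 4 models did not overlap in Cd86, in the order TPMCa, TPK, TPM and TPMR1 from high to low. The share of all genes whose 4 models did not overlap was not computed, so this order cannot be judged against it. Cd80 (16, 38455561 to 38496335, plus strand), the other ligand of CD28 and CTLA-4, lay at 3.13 and 2.40 CPM in TPM, 3.55 and 4.90 CPM in TPMCa, 0.0774 and 1.17 CPM in TPMR1 and 18.1 and 15.2 CPM in TPK. Both TPK libraries were above the 6 others, and the TPMR1 libraries rested on 2 and 21 counts. Flt3, the receptor through which FLT3 ligand supports dendritic cell development (5, 147330741 to 147400489, minus strand), lay at 0.602 and 0.572 CPM in TPM, 1.27 and 6.73 CPM in TPMCa, 0.387 and 3.11 CPM in TPMR1 and 0.571 and 0 CPM in TPK. These are 10 and 10, 20 and 121, 10 and 56, and 10 and 0 counts, and a count of 0 in TPK replicate 2 allows up to 0.198 CPM. Flt3 did not share the low TPMR1 level of the other genes, and its TPMR1 libraries spanned those of TPM.

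**Figure D1:**
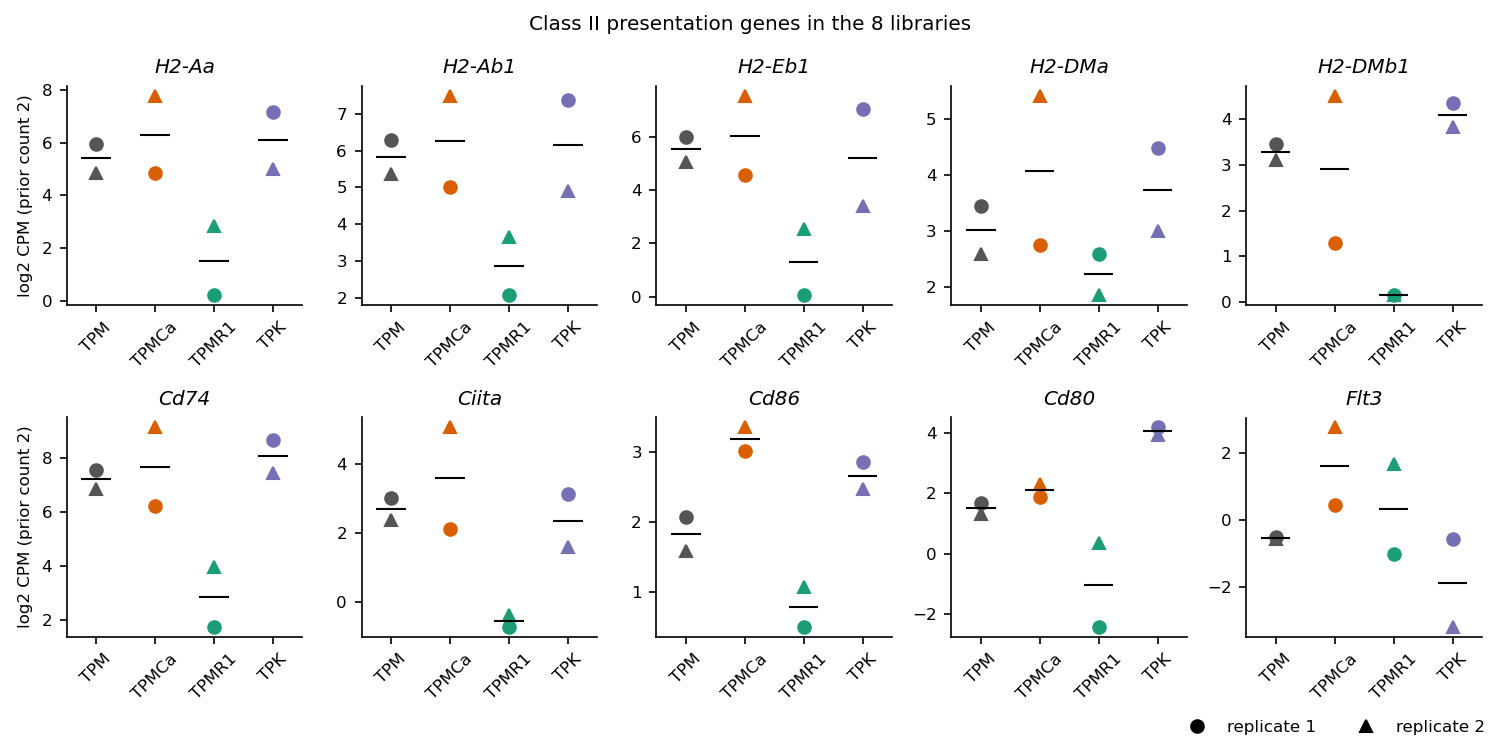
Levels of the 10 genes in log2 CPM (prior count 2, vertical axis) in the 8 libraries, by model (horizontal axis), with circles for replicate 1, triangles for replicate 2 and a bar at the mean of the 2 log2 values. TPMR1 sits below TPM without overlap for 8 of the 10 genes, and Cd80 is highest in both TPK libraries. The Flt3 point of TPK replicate 2 stands for 0 counts.

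The order of mean levels among models can be read for each gene, but only part of it exceeds the spread between replicates. For H2-Aa, H2-Ab1, H2-Eb1 and Cd74, TPMCa had the highest mean and TPMR1 the lowest, and neighbors among TPMCa, TPK and TPM overlapped. The mean of H2-Ab1, for example, was 106 ± 104 CPM in TPMCa, 98.2 ± 96.7 in TPK, 59.4 ± 26.5 in TPM and 8.28 ± 5.90 in TPMR1 (SD, n = 2). For Cd86 the mean was 9.05 ± 1.52 CPM in TPMCa, 6.31 ± 1.18 in TPK, 3.51 ± 0.832 in TPM and 1.66 ± 0.484 in TPMR1 (SD, n = 2). With 2 libraries in each of 2 models, an exact permutation test of a single value cannot give a two-sided p below 0.333, so no such test was made. The tests below come from a fit across all 15875 genes with edgeR's quasi-likelihood method and Benjamini-Hochberg adjustment over all of them. In the test of any difference among the 4 models, 0 of the 10 genes passed an adjusted p of 0.05, against 7.32% of all genes. At an unadjusted p under 0.05, 5 of the 10 passed against 27.9% of all genes, namely H2-DMb1, Cd74, Ciita, Cd86 and Cd80 with adjusted p from 0.101 to 0.147, and this count was 8 without TPMCa replicate 1 and 2 without TPMR1 replicate 1. DESeq2's likelihood ratio test passed 8 of the 10 at an adjusted p of 0.05, all but H2-DMa and Flt3, against 30.0% of all genes.

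TPMR1 was compared with TPM to see what goes with the added sgRNA against Pik3r1. Of the 10 genes, 9 had a negative log2 fold change, 8 had both TPMR1 libraries below both TPM libraries against 28.4% of all genes, and the median was -3.06 against 0.03 for all genes. Cd74 had a log2 fold change of -4.03 ± 1.17 (SE, adjusted p = 0.102), H2-Eb1 of -3.89 ± 1.56 (adjusted p = 0.198) and H2-Aa of -3.52 ± 1.34 (adjusted p = 0.179). Ciita had -3.46 ± 1.09 (adjusted p = 0.122), H2-DMb1 -3.26 ± 1.01 (adjusted p = 0.115) and H2-Ab1 -2.85 ± 1.13 (adjusted p = 0.194). These 6 genes passed the thresholds named in the study's methods (unadjusted p below 0.05, absolute log2 fold change above 1) in the lower direction, against 12.6% of all genes. The study named them for DESeq2, in TPK or TPM against TPMCa and TPMR1. Here they are applied to edgeR p-values in every comparison, and the study's thresholds mean this use throughout. None of the 10 passed an adjusted p of 0.05 with edgeR, against 5.58% of all genes, whereas the same 6 passed with DESeq2, against 18.1%. Cd80 had -2.17 ± 1.03 (adjusted p = 0.268) and Cd86 -1.08 ± 0.53 (adjusted p = 0.283). H2-DMa, at -0.81 ± 0.93 (adjusted p = 0.656), and Flt3, at 1.56 ± 1.56 (adjusted p = 0.606), had differences below or about equal to their standard errors. The count of 6 fell to 1 without TPMR1 replicate 1, the library with the lowest Ptprc, to 2 without TPM replicate 1 and to 4 without TPM replicate 2. Without TPMR1 replicate 1 the log2 fold changes of these 6 genes stayed negative, that of H2-Aa being -2.71 and that of Cd74 -3.31.

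TPMCa was compared with TPM to see what goes with the added Pik3ca cDNA, and this comparison uses the same TPM libraries. All 10 genes had a positive log2 fold change, with a median of 1.23 against -0.01 for all genes. None passed an adjusted p of 0.05 with edgeR, against 3.48% of all genes. The values were 1.44 for H2-Aa, 0.83 for H2-Ab1, 1.10 for H2-Eb1, 1.56 for H2-DMa, 0.37 for H2-DMb1, 1.05 for Cd74, 1.52 for Ciita, 0.61 for Cd80 and 2.76 for Flt3, with standard errors between 0.91 and 1.61. The TPMCa and TPM libraries did not overlap for Cd86, Cd80 and Flt3, 3 of 10 against 29.1% of all genes that were higher without overlap. Cd86 was the gene past the study's thresholds, 1 of 10 against 7.28% of all genes in the higher direction, at 1.37 ± 0.53 (SE, adjusted p = 0.199). The count was 3 without TPMCa replicate 1 and 0 without any single library of TPM or TPK. DESeq2 also passed Cd86 (adjusted p = 0.0350) and no other of the 10, against 16.0% of all genes. For the class II genes the sign rested on TPMCa replicate 2, the library with high B cell markers. Without it the log2 fold change was -0.67 for H2-Aa, -0.87 for H2-Ab1, -1.06 for H2-Eb1, -0.33 for H2-DMa, -2.05 for H2-DMb1, -1.05 for Cd74 and -0.63 for Ciita, whereas it stayed between 1.14 and 1.65 for Cd86 whichever library was left out.

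TPMR1 and TPMCa, which share the TPM alterations and differ in how the PI3K subunits were altered, had the largest median difference of the 5 comparisons between models. All 10 genes were lower in TPMR1, with a median log2 fold change of -3.66 against 0.01 for all genes, and for 9 of them, all but Flt3, the libraries did not overlap, against 17.7% of all genes. The 9 genes also passed the study's thresholds in the lower direction, against 5.88% of all genes. Cd74 had -5.09 ± 1.23 (SE, adjusted p = 0.364), Ciita -4.98 ± 1.16 (adjusted p = 0.364) and Cd86 -2.45 ± 0.55 (adjusted p = 0.364). H2-Aa had -4.97, H2-Ab1 -3.68, H2-Eb1 -4.99, H2-DMa -2.38, H2-DMb1 -3.63, Cd80 -2.78 and Flt3 -1.20, with standard errors between 0.97 and 1.64. None of the 15875 genes passed an adjusted p of 0.05 with edgeR, 0%, while DESeq2 passed 7 of the 10 genes against 4.86% of all genes, all but H2-DMa, Cd80 and Flt3. Without TPMCa replicate 2 the 9 genes past the study's thresholds fell to 3 and Flt3 changed sign, to 0.46. The log2 fold change of Cd74 was then -2.99 and that of Cd86 -2.27. With TPMR1 replicate 1 left out as well, the log2 fold change of Flt3 was 1.29.

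TPK was compared with TPM and with the mean of TPMCa and TPMR1, and both comparisons use the same TPK libraries. Against TPM, 8 of the 10 genes had a positive log2 fold change, with a median of 0.84 against 0.01 for all genes, and 3, H2-DMb1, Cd86 and Cd80, were higher without overlap, against 24.4% of all genes. Cd80 was higher at 2.58 ± 1.02 (SE, unadjusted p = 0.0401, adjusted p = 0.691 with edgeR), the only 1 of the 10 past the study's thresholds, against 2.32% of all genes in the higher direction. The other values were 0.94 for H2-Aa, 0.73 for H2-Ab1, 0.54 for H2-Eb1, 0.85 for H2-DMa, 0.84 for H2-DMb1, 0.93 for Cd74, -0.18 for Ciita, 0.85 for Cd86 and -0.99 for Flt3, with standard errors between 0.53 and 1.63. No gene in the table passed an adjusted p of 0.05 with edgeR, 0%, and DESeq2 passed 0 of the 10 genes against 1.51% of all genes. Without TPK replicate 1, the log2 fold changes of H2-Aa, H2-Ab1, H2-Eb1 and H2-DMa turned negative, at -0.51, -1.0, -2.23 and -0.09. Leaving out any library of TPK, TPM or TPMCa gave Cd80 an unadjusted p above 0.05, which left 0 genes past the thresholds.

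Against the mean of TPMCa and TPMR1, Cd80 was the member that passed the adjusted threshold. It rose by 3.37 ± 0.82 on the log2 scale (SE, adjusted p = 0.0400 with edgeR), and both TPK libraries were above all 4 libraries of TPMCa and TPMR1. This is 1 of 10 genes called higher, against 10.3% of all genes, and 1 of 10 without overlap, against 22.4%. H2-DMb1 had 2.29 ± 0.76 (adjusted p = 0.0926) and Cd74 2.42 ± 0.86 (adjusted p = 0.108), and these with Cd80 were the 3 genes past the study's thresholds, against 15.5% of all genes in the higher direction. DESeq2 called the same 3 at an adjusted p of 0.05, against 28.4% of all genes. The count of 3 was 5 without TPK replicate 2 and 6 without TPMCa replicate 2. The edgeR call of Cd80 depended on the libraries and on the scale. Its adjusted p was 0.0795 to 0.172 with any library of TPK, TPM or TPMCa left out, 0.0515 with total counts as the scale and 0.0779 in a fit of the compared models alone, and the log2 fold change stayed between 2.90 and 4.80 whichever library was left out. Without TPMCa replicate 2 and TPMR1 replicate 1 together, Cd80, H2-DMb1 (adjusted p = 0.0111) and Cd74 (adjusted p = 0.0212) passed. H2-Aa had 1.98, H2-Ab1 1.73, H2-Eb1 1.93, H2-DMa 0.48, Ciita 0.80 and Cd86 0.70, with standard errors between 0.44 and 1.15. Flt3 had the only negative value, -3.15 ± 1.57 (adjusted p = 0.221). This mean joins 2 models at different levels, with mean Cd74 at 318 CPM in TPMCa, 9.37 in TPMR1 and 293 in TPK. Mean CPM was higher in TPMCa than in TPK for each of the 10 genes other than H2-DMb1 and Cd80.

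**Figure D2:**
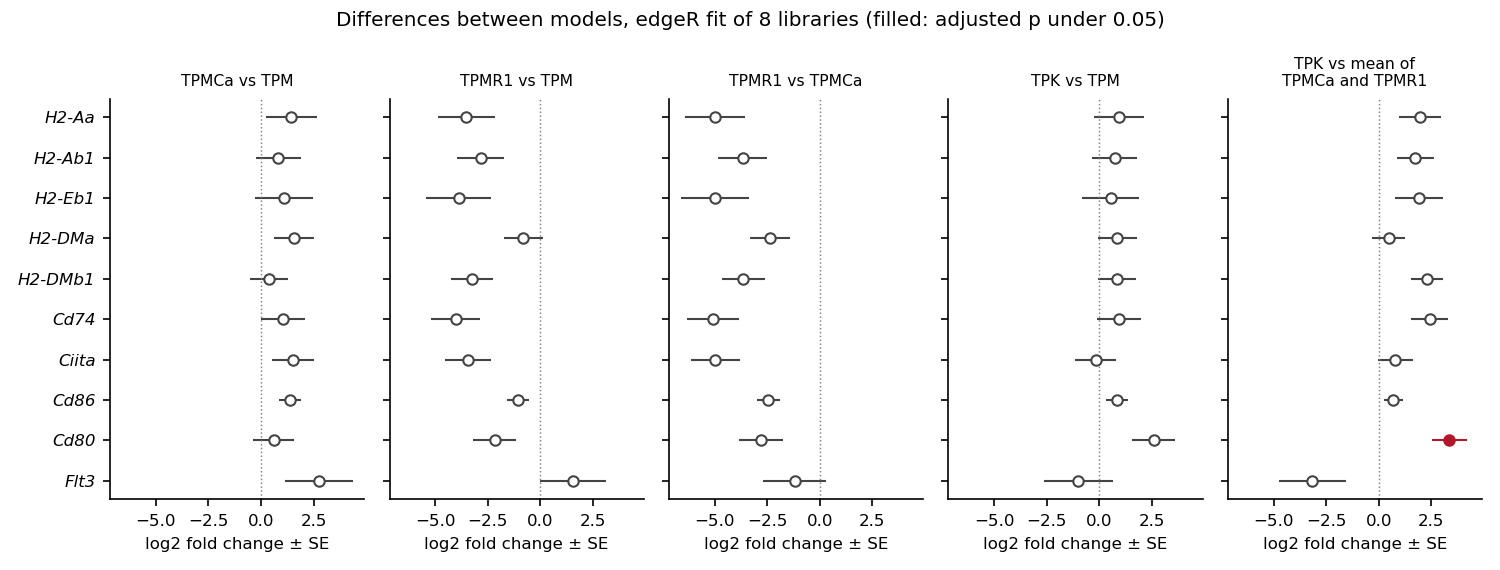
Log2 fold changes (horizontal axes, with standard errors as bars) of the 10 genes in 5 comparisons from the edgeR fit of 8 libraries, with filled points for an adjusted p under 0.05. The values lie left of 0 in both comparisons of TPMR1 apart from Flt3 against TPM, and Cd80 against the mean of TPMCa and TPMR1 (3.37) is the filled point.

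Markers of macrophages, B cells and dendritic cells had their highest sums in TPMCa replicate 2 and their lowest in TPMR1 replicate 1, and their part in the results was not tested. The 11 macrophage markers summed to 1056 and 519 CPM in TPM, 1225 and 5137 CPM in TPMCa, 388 and 800 CPM in TPMR1 and 3211 and 1835 CPM in TPK. The macrophage sum was thus highest in TPMCa replicate 2 and lowest in TPMR1 replicate 1, as for Cd86. Ptprc lay at 35.5 and 40.3 CPM in TPM, 113 and 196 CPM in TPMCa, 5.38 and 62.4 CPM in TPMR1 and 55.6 and 63.9 CPM in TPK. In TPMR1 replicate 2, Ptprc was higher than in both TPM libraries, and 9 of the 10 genes, all but Flt3, were lower. The macrophage sum of this library lay between those of TPM, and its dendritic cell sum and Itgax, given next, were below both. The 11 dendritic cell markers summed to 25.5 to 29.9 CPM in TPM, 28.4 to 155 in TPMCa, 15.3 to 23.5 in TPMR1 and 54.0 to 70.7 in TPK. Itgax (CD11c) lay at 23.4 and 40.5 CPM in TPK, 16.9 and 14.8 CPM in TPM, 8.30 and 34.1 CPM in TPMCa and 1.94 and 7.67 CPM in TPMR1. The cross-presenting dendritic cell markers Xcr1 and Clec9a were at or below 1.84 CPM in every library. The 6 T cell markers summed to at most 25.7 CPM, in TPMCa replicate 2, and Cd3e was at 0 in TPM replicate 1 and TPMR1 replicate 1. The 6 measured neutrophil markers ran the other way within TPMCa, with 2271 CPM in replicate 1 and 311 CPM in replicate 2. They summed to 16.0 CPM in TPMR1 replicate 1 and to between 498 and 881 CPM in the libraries of TPM, TPK and TPMR1 replicate 2.

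**Figure D3:**
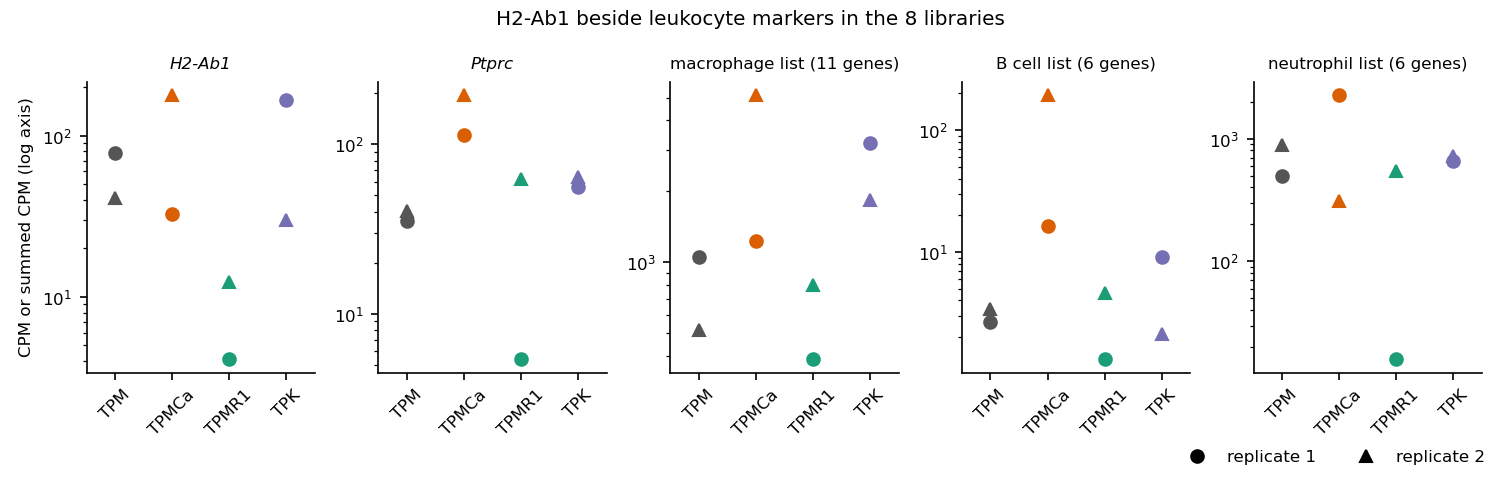
H2-Ab1 and Ptprc in CPM and the summed CPM of the macrophage, B cell and neutrophil markers (vertical log axes) in the 8 libraries, by model, with circles for replicate 1 and triangles for replicate 2. TPMCa replicate 2 has the highest B cell and macrophage sums (195 and 5137 CPM), and TPMR1 replicate 1 is lowest in all 5 panels.

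Relative to Ptprc, both TPMR1 libraries were below both TPM libraries for each of the 10 genes other than H2-DMa, Cd86 and Flt3, a description with no test. The share of all genes below TPM on this scale was not computed, so this number of genes cannot be judged against it. All ratios in a library share 1 Ptprc value, which was 11.6-fold apart between the TPMR1 libraries. The log2 ratio to Ptprc (prior count 2) was 0.81 and -0.47 in TPM, -1.98 and 0.16 in TPMCa, -2.25 and -3.15 in TPMR1 and 1.36 and -0.99 in TPK for H2-Aa. For Cd74 it was 2.42 and 1.52 in TPM, -0.62 and 1.52 in TPMCa, -0.69 and -2.01 in TPMR1 and 2.88 and 1.45 in TPK. The TPMR1 libraries of H2-Aa and Cd74 were below all others on this scale as well. H2-Ab1 had ratios of 1.14 and 0.02 in TPM, -1.80 and -0.13 in TPMCa, -0.38 and -2.32 in TPMR1 and 1.58 and -1.09 in TPK, so that TPMR1 was below TPM but overlapped TPMCa and TPK. Its mean difference from TPM was -1.93 for TPMR1, with a range of -2.89 to -0.96 when a library was left out, and -1.54 for TPMCa, with a range of -2.38 to -0.71. The sign of TPMCa against TPM was thus opposite to that of the CPM level of H2-Ab1, and Ptprc was higher in both TPMCa libraries than in TPM. Set against the summed macrophage markers, the difference of H2-Ab1 was -2.55 for TPMR1, -1.33 for TPMCa and -1.39 for TPK. Cd80 had ratios of -1.62 and -2.07 in TPK, -4.87 and -5.61 in TPMR1, -4.96 and -5.29 in TPMCa and -3.46 and -4.01 in TPM, and its TPK libraries stayed above the 6 others. For Cd86 the ratios of all models overlapped with those of TPMR1, which spanned -4.89 to -1.94.

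**Figure D4:**
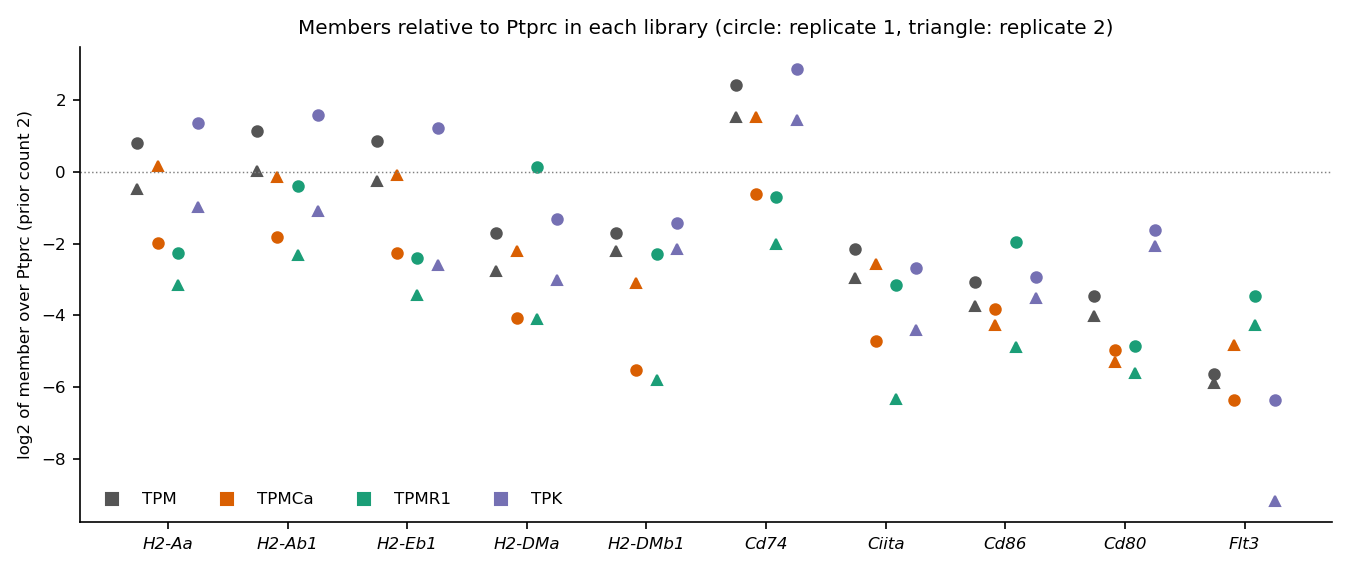
Log2 ratio of each of the 10 genes to Ptprc (prior count 2, vertical axis) in each library, colored by model, with circles for replicate 1 and triangles for replicate 2. TPMR1 is below the other models for H2-Aa and Cd74, and TPK is above them for Cd80 (-1.62 and -2.07).

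Ratios between partner genes within a library do not depend on the scaling of libraries, and 4 are given as a description. The ratio of Cd80 to Cd86 in CPM was 2.53 and 2.77 in TPK, 0.76 and 0.82 in TPM and 0.44 and 0.48 in TPMCa, and 0.58 in TPMR1 replicate 2. This ratio was above 1 in both TPK libraries and in no other library, and no ratio is given for TPMR1 replicate 1, where Cd80 had 2 counts. The ratio of H2-DMa to H2-DMb1 was 0.99 and 0.69 in TPM, 1.08 and 0.55 in TPK, 2.81 and 1.87 in TPMCa and 5.88 and 3.5 in TPMR1. It was thus at least 1.87 in all 4 libraries of TPMCa and TPMR1 and at most 1.08 in the 4 others, with the overlap of H2-DMa with Brd2 and of H2-DMb1 with H2-DMb2 as limits. The ratio of H2-Aa to H2-Ab1 lay between 0.71 and 1.22 outside TPMR1 and at 0.25 and 0.56 in TPMR1.

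**Figure D5:**
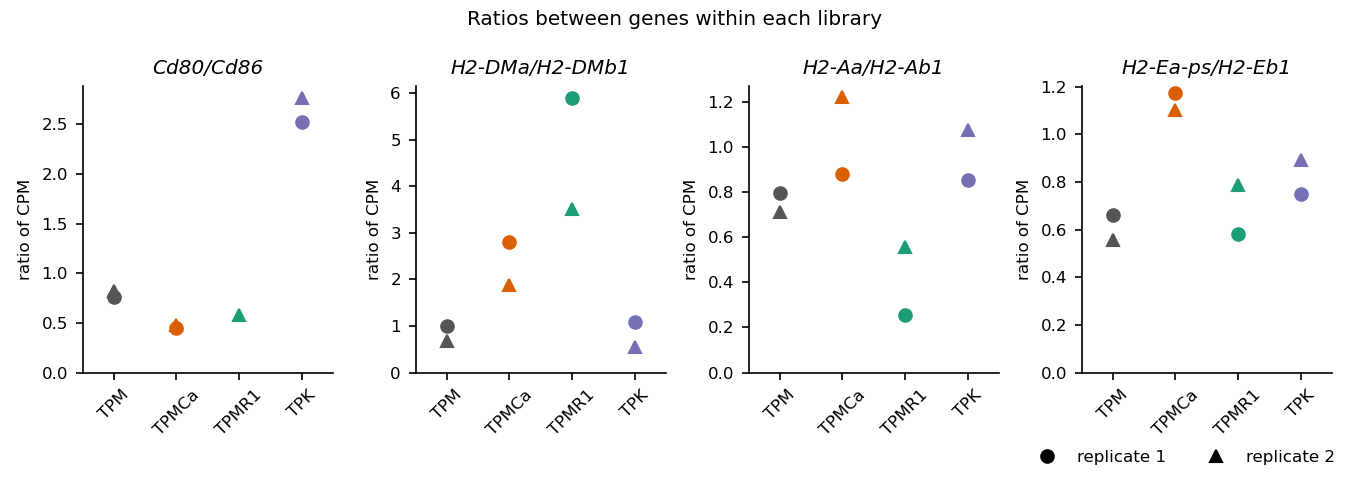
Ratios of CPM between 4 pairs of genes (vertical axes from 0) in each library, by model, with circles for replicate 1 and triangles for replicate 2, leaving out the ratio in which a gene had 3 counts or fewer. Cd80 to Cd86 is highest in TPK (2.53 and 2.77), and H2-DMa to H2-DMb1 is at least 1.87 in TPMCa and TPMR1.

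Among the other class II chains, the I-E alpha chain locus H2-Ea-ps had its extremes in the same libraries as H2-Eb1. It lay at 42.3 and 18.8 CPM in TPM, 27.5 and 205 CPM in TPMCa, 0.542 and 4.50 CPM in TPMR1 and 98.2 and 9.36 CPM in TPK, between 0.56 and 1.17 times the CPM of H2-Eb1. As background, the promoter of this gene is deleted in the b haplotype of C57BL/6 and intact in BALB/c, the strain of the hosts. H2-Ob, the beta chain of the H2-DM inhibitor H2-O and a gene of B cells, lay at 30.8 CPM in TPMCa replicate 2 and at most 1.33 CPM elsewhere. H2-DMb2 lay at 44.0 CPM in TPMCa replicate 2 and at most 8.57 CPM elsewhere. Of these 3 tested genes, 0 passed an adjusted p of 0.05 in any comparison with edgeR. All 3 were lower in TPMR1 than in TPMCa at an unadjusted p under 0.05, against 11.8% of all genes in either direction. In DESeq2's 4-model test all 3 passed an adjusted p of 0.05, against 30.0% of all genes.

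The promoter factors differed little in the median, while interferon-gamma receptor genes were higher in TPK than in the mean of TPMCa and TPMR1. Of 10 promoter factors (the RFX and NF-Y subunits, Creb1, Irf8, Irf4 and Spi1), 0 passed an adjusted p of 0.05 in any comparison with edgeR. In TPMR1 against TPMCa, 3 passed an unadjusted p under 0.05, against 11.8% of all genes. In DESeq2's 4-model test 1, Irf4, passed an adjusted p of 0.05, against 30.0% of all genes. Their medians were 0.03 for TPMR1 against TPM and 0.28 for TPMCa against TPM on the log2 scale. Irf4, a factor of lymphocytes and dendritic cells, lay at 51.2 CPM in TPMCa replicate 2 and at most 4.50 CPM elsewhere. Of 7 tested interferon-gamma signaling genes, 3 rose in TPK against the mean of TPMCa and TPMR1, against the 10.3% of all genes called higher. They were the receptor chains Ifngr1, by 1.55 (adjusted p = 0.0226), and Ifngr2, by 1.40 (adjusted p = 0.0202), and the kinase Jak2, by 1.31 on the log2 scale (adjusted p = 0.0177). Against TPM none of these 3 was called in TPK, with values of 0.75 for Ifngr1 (adjusted p = 0.721), -0.07 for Ifngr2 (adjusted p = 0.982) and 0.68 for Jak2 (adjusted p = 0.695). Ifngr2 lay at 71.0 and 133 CPM in TPK and at 104 and 109 CPM in TPM, so that these libraries overlapped. In the comparison of TPMR1 with TPM, Ifngr2 fell by 1.53 on the log2 scale (adjusted p = 0.0482), 1 of the 7 genes against 4.50% of all genes called lower.

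Of 8 tested endosomal processing genes, 1 passed the 4-model test, against 7.32% of all genes. This was Ctss (cathepsin S, which trims the invariant chain in antigen-presenting cells), with an adjusted p of 0.0365. Ctss lay at 108 and 68.5 CPM in TPM, 226 and 500 CPM in TPMCa, 57.8 and 64.6 CPM in TPMR1 and 337 and 262 CPM in TPK. Both TPMR1 libraries were the lowest and all TPK and TPMCa libraries were above those of TPM. Of 6 tested co-stimulation genes other than Cd80 and Cd86, 0 passed an adjusted p of 0.05 in any comparison with edgeR. In TPMR1 against TPMCa, 2 of the 6 passed an unadjusted p under 0.05, against 11.8% of all genes. In DESeq2's 4-model test 2, Cd40 and Cd28, passed an adjusted p of 0.05, against 30.0% of all genes. The medians were 0.10 for TPK against TPM and -0.15 for TPK against the mean of TPMCa and TPMR1. Among the marker lists, the epithelium list had the most calls, with 6 of 6 genes past the 4-model test. Epcam (adjusted p = 0.00261), the cadherin Cdh1 (adjusted p = 0.00116) and the keratins Krt7 (adjusted p = 0.00986) and Krt19 (adjusted p = 0.0253) were among them, all with their TPMCa and TPMR1 libraries below those of TPM and TPK. Of the leukocyte and dendritic cell lists, Ccr7 (adjusted p = 0.0356), a receptor of migrating dendritic cells and lymphocytes, and Laptm5 (adjusted p = 0.0485), a leukocyte gene, passed the 4-model test. In TPK against the mean of TPMCa and TPMR1, 1 of the 11 macrophage genes was called, against 4.06% of all genes called lower. It was Mertk, a receptor of macrophages, which fell by 1.93 on the log2 scale (adjusted p = 0.0408 with edgeR). Mertk went against its list, in which 8 of the 11 genes were higher in TPK, with a median of 0.63. Ccr7 lay at 55.5 CPM in TPMCa replicate 2 and 9.44 CPM in TPMCa replicate 1, and at most 1.31 CPM elsewhere.

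The 5 genes outside the 10 whose log2 CPM was most like that of H2-Ab1 over the 8 libraries were Nptn (Pearson r = 0.984), H2-Ea-ps (r = 0.982), Clec4a1 (r = 0.970), Tnfsf11 (r = 0.966) and Dok4 (r = 0.953). Nptn spanned only 72.9 to 147 CPM, against 4.10 to 179 CPM for H2-Ab1. The 5 most like Cd86 were Cthrc1 (r = 0.993), Cd300lh (r = 0.970), Cacna1d (r = 0.969), Il10ra (r = 0.968) and Tnfaip8l2 (r = 0.967). With Spearman's rank correlation, 2 of the 5 genes for H2-Ab1 and 1 of the 5 for Cd86 were again among the 5 highest. These correlations are a description over 8 points that share their libraries and their leukocyte marker levels, chosen as the highest of all genes tested.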

How the data were processed

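RNA was sequenced from 2 samples of each of 4 models, tumor tissue by the methods and organoids by the labels. The authors had reads trimmed by the sequencing company, aligned them to mm10 with STAR and deposited whole-number read counts per gene symbol (the counter, its annotation and its use of strand are not given in the sources used here). The authors' table of counts divided by DESeq2 size factors was not used. Of the symbols, 25 had been turned into dates. Models and replicate numbers came from the labels. The counts were fitted with edgeR 4.0.16 (TMM, filterByExpr, quasi-likelihood, a term for the model over 8 libraries, common dispersion 0.269) in R 4.3.3. Contrasts were adjusted by the Benjamini-Hochberg method. Standard errors were derived as the absolute log2 fold change divided by the square root of the quasi-likelihood F statistic. DESeq2 1.42.0, which the study's methods name, other scalings and filters, fits of the compared models alone, a replicate block and leaving out libraries were alternatives. The fit was tested on simulated data. Log2 CPM used a prior count of 2. Total counts per library were 15748396 to 26943611, and a level of 3 counts is the floor.

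The 10 genes, the pathway and marker lists and the motifs were chosen with earlier results of these data known. The text names the 10 genes in every comparison, up to 4 genes of each other list past an adjusted p of 0.05, marker examples, and the 5 genes most correlated with H2-Ab1 and with Cd86. H2-Ob, H2-DMb2, H2-Ea-ps, Irf4, Xcr1, Clec9a, Brd2 and Dexi were added after their values were seen. Gene positions are from GENCODE (GRCm38) and promoters from RefSeq (GRCm38.p6). Class II genes differ between mouse strains, and the effect of aligning to mm10, a C57BL/6 genome, was not tested. Some engineered alterations are not reported here.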

Additional observations from a re-analysis of the deposited data

How the results depend on the processing

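With 2 libraries in a model, leaving 1 out assumes that the lone library varies like the other models, and depth limits Flt3 and Cd80 in TPMR1. Scaling by total counts shifted the median of all genes by up to 0.123 (log2). With total counts as the scale, 0 of the 10 genes passed the study's thresholds in TPK against TPM and 0 passed an adjusted p of 0.05 in TPK against the mean of TPMCa and TPMR1. The replicate numbers did not pair the libraries (correlations of deviations -0.07 to -0.01), and with the replicate block 0 passed the study's thresholds in TPK against TPM and in TPMCa against TPM, and Cd80 had an adjusted p of 0.0589 in TPK against the mean, so that 0 were called. In fits of the compared models alone, 2 passed the study's thresholds in TPMCa against TPM and 0 were called in TPK against the mean. DESeq2 called 1 gene in TPMCa against TPM, 6 in TPMR1 against TPM, 3 in TPK against the mean, 7 in TPMR1 against TPMCa and 8 among the 4 models (8 unadjusted).

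With 1 library left out, adjusted calls ranged from 0 to 1 in the 4-model test, TPK against the mean, TPMR1 against TPM and TPMR1 against TPMCa, and the counts past the study's thresholds from 0 to 1 in TPK against TPM, 0 to 3 in TPMCa against TPM, 1 to 6 in TPMR1 against TPM, 2 to 6 in TPK against the mean, 3 to 8 in TPMR1 against TPMCa and 2 to 8 unadjusted in the 4-model test. Log2 fold changes whose sign depended on a library ranged, for TPMCa against TPM, from -0.67 to 2.27 for H2-Aa, -0.87 to 1.6 for H2-Ab1, -1.06 to 1.94 for H2-Eb1, -0.33 to 2.36 for H2-DMa, -2.05 to 1.24 for H2-DMb1, -1.05 to 1.89 for Cd74 and -0.63 to 2.35 for Ciita, negative without TPMCa replicate 2. For TPK against TPM they ranged from -0.51 to 1.65 for H2-Aa, -1.0 to 1.49 for H2-Ab1, -2.23 to 1.43 for H2-Eb1 and -0.093 to 1.42 for H2-DMa, negative without TPK replicate 1, and from -1.17 to 0.40 for Ciita, which was positive without TPK replicate 2 or TPM replicate 1 (0.17). Against the mean they ranged from -0.84 to 3.01 for H2-Eb1, -0.47 to 1.43 for H2-DMa and -0.20 to 1.87 for Ciita, negative without TPK replicate 1. Flt3 ranged from -0.59 to 2.39 in TPMR1 against TPM, negative without TPMR1 replicate 2, and from -3.35 to 0.46 in TPMR1 against TPMCa, positive without TPMCa replicate 2. H2-DMb1 was called in TPMR1 against TPM without either TPMCa library (adjusted p = 0.0296 and 0.0317), and Cd80 was called without TPMR1 replicate 2 in TPMR1 against TPM (adjusted p = 0.0152) and against TPMCa (adjusted p = 0.0192).

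Leaving out TPMCa replicate 2 and TPMR1 replicate 1 together, chosen after seeing the data, gave 1 call in TPMR1 against TPM, 3 in TPK against the mean and 2 in the 4-model test, with 3, 5 and 3 past the unadjusted thresholds and 3 in TPMR1 against TPMCa. The same setting changed the sign in TPMCa against TPM of H2-Aa (-0.67), H2-Ab1 (-0.87), H2-Eb1 (-1.06), H2-DMa (-0.33), H2-DMb1 (-2.04), Cd74 (-1.05) and Ciita (-0.63), and of Flt3 in TPMR1 against TPMCa (1.29). The cause was not tested for these changes. DESeq2 size factors within edgeR and both other filters on low counts changed no adjusted call.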
